A study of Mus musculus with 2 samples.

Results

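The genes described are 7 members of the intermediate filament family: the neurofilament light, medium and heavy subunits Nefl, Nefm and Nefh, alpha-internexin (Ina), vimentin (Vim), glial fibrillary acidic protein (Gfap) and nestin (Nes). They were chosen by gene name, though with earlier results of these data known. All 7 were found among the 18510 annotated genes with at least 1 read. The study sequenced RNA of the left cerebral cortex of female mice aged 14 days as long reads, in 2 libraries labelled as biological replicates 1 and 2. The mice were the hybrid B6CASTF1/J, bred from C57BL/6J and CAST/EiJ parents, with no allele, agent or treatment named in the labels. Both libraries belong to 1 group, so what can be compared is the members among themselves and the libraries with each other. The library labels of both replicates may mean that several females were combined, the tissue labels differ on this point and both share 1 donor entry, so the spread between replicates may not be that between animals, and reads of the 2 parental gene copies were not separated. Replicate 1 held 1072344 mouse reads and replicate 2 held 753520, and levels are given as RPM, reads scaled to a total of 1000000 mouse reads. In these units 3 reads, the limit that a count of 0 allows, came to 2.80 RPM in replicate 1 and 3.98 RPM in replicate 2.

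Intermediate filament proteins share a central coiled-coil rod and assemble into ropelike polymers that give a cell its tensile strength. In axons the light, medium and heavy neurofilament subunits and alpha-internexin form mixed filaments, whose long phosphorylated side arms come from the medium and heavy subunits and which are known for setting the calibre of large, myelinated axons. Astrocytes build theirs from GFAP and vimentin, vimentin is also made by endothelial, meningeal and other mesenchymal cells, and nestin is best known from neural progenitors and from vessels. In bulk tissue, fewer cells of a type and less RNA per cell cannot be told apart.

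Exons that encode parts of the rod show how the members are related, while the long reads were sorted by their whole intron chains. Nefl, Nefm, Nefh, Ina and Nes each had a coding exon of exactly 125 bases in their main annotated transcript. That length was held by 0.519% of the 242568 coding segments of the annotation, which include the coding parts of partly coding exons. The 125-base exon was exon 2 of the main transcript in Nefl, Nefm, Ina and Nes and exon 3 in Nefh. The sequences are given 5′ to 3′ on the gene's strand, from GENCODE M21 transcripts on GRCm38 (mm10), for Nefl, Ina and Nes, with capitals where all 3 exons hold the same base.
Nefl: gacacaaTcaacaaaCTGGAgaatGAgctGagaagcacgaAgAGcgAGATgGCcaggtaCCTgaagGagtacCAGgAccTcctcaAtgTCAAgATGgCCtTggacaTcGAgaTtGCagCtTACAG
Ina: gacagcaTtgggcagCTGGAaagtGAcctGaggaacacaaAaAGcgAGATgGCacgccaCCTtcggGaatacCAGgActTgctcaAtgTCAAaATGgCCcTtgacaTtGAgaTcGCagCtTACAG
Nes: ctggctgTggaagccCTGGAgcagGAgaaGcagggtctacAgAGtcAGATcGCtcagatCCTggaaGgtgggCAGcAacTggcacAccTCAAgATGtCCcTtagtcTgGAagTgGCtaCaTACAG

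These stretches lay at chr14:68085974-68086098 on the plus strand (Nefl), chr19:47021833-47021957 on the plus strand (Ina) and chr3:87972992-87973116 on the plus strand (Nes). Nefl and Ina held the same base at 95 of 125 positions (76.0%). The Nes exon matched that of Nefl at 62 positions (49.6%) and that of Ina at 57 (45.6%), and all 3 shared 50. The nestin exon thus had the same length as those of Nefl and Ina and a more distant sequence.

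Vim and Gfap were built differently, with 9 exons in the main transcript in place of 3 or 4. Exons 2 to 8 of Vim-201 and Gfap-201 had the same lengths pair by pair: 61, 96, 162, 126, 221, 44 and 86 bases. Their exon 5 is shown because its 126 bases are the shared length nearest to 125, with capitals where both hold the same base. Whether it corresponds to the 125-base exon was not tested.
Vim: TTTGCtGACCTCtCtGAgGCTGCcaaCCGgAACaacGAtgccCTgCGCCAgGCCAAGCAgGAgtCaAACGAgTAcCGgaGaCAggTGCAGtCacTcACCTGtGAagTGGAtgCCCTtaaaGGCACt
Gfap: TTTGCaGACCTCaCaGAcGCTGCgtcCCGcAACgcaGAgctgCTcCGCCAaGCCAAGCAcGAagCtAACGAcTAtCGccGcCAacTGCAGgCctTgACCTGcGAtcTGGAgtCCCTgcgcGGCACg

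The Vim exon lay at chr2:13579421-13579546 on the plus strand and the Gfap exon at chr11:102893461-102893586 on the minus strand, and 84 of their 126 bases were identical (66.7%). A coding length of 126 bases was held by 0.776% of coding segments.

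**Figure D1:**
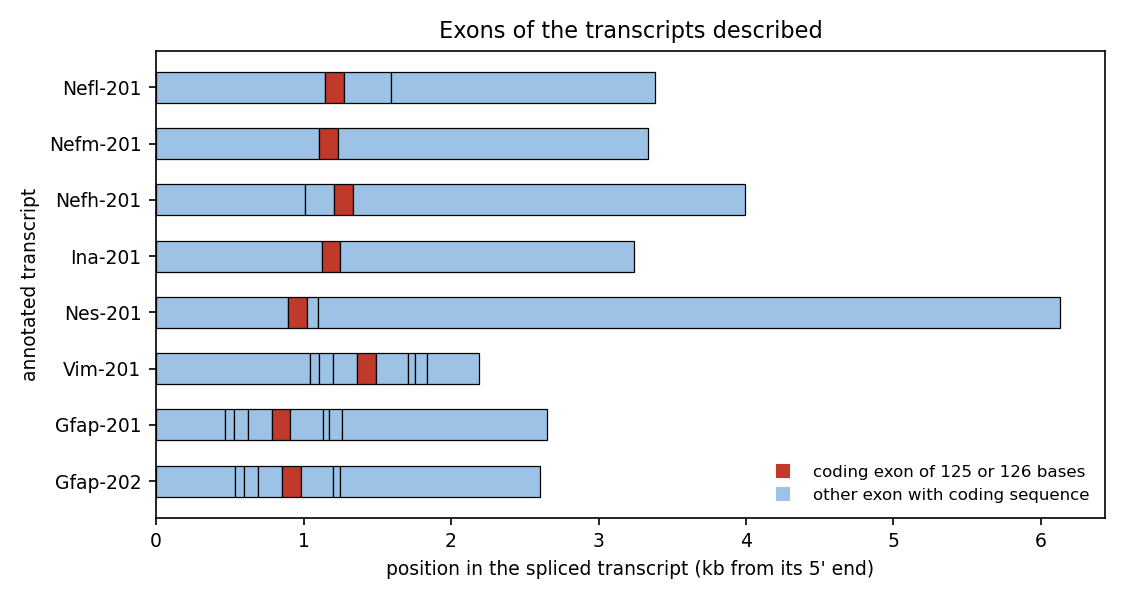
Exons of the annotated transcripts described, drawn as boxes along the spliced transcript in kb from its 5′ end, with one transcript per row. Coding exons of 125 or 126 bases are red and the other exons with coding sequence are blue. The transcripts of Nefl, Nefm, Nefh, Ina and Nes have 3 or 4 exons with a long last one, and those of Vim and Gfap have 8 or 9.

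Nefl, which encodes the light subunit that neurofilaments need to assemble, was the most abundant member by far. It lies on the plus strand at chr14:68083863-68089095 (ENSMUSG00000022055.7). In replicate 1 it had 1403 reads (1308 RPM) and in replicate 2 it had 806 (1070 RPM), a mean of 1189 ± 169 RPM (SD, n = 2 here and below), which placed it at rank 62 among the 18510 genes. A long read was counted once whatever the length of its transcript, so these levels are not divided by length. Nefl was 5.54 times as abundant as the next member, and its lower library stood above the higher library of every other one.

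Nefm, the medium subunit, is read from the opposite strand, with its main transcript 30.187 kb from that of Nefl (gene at chr14:68082590-68124846, ENSMUSG00000022054.11). It had 267 reads (249 RPM) in replicate 1 and 117 (155 RPM) in replicate 2, a mean of 202 ± 66.3 RPM. Ina, which encodes the alpha-internexin that joins neurofilaments in the central nervous system, had 227 reads (212 RPM) in replicate 1 and 164 (218 RPM) in replicate 2, a mean of 215 ± 4.21 RPM (chr19:47014698-47025327, plus strand, ENSMUSG00000034336.3). The order of these neighbours was not fixed by the data, since Nefm was the higher in replicate 1 and Ina in replicate 2.

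Nefh, the heavy subunit, whose tail carries the most phosphorylation repeats and which is known to appear last as axons mature, was far lower. It had 33 reads (30.8 RPM) in replicate 1 and 26 (34.5 RPM) in replicate 2, a mean of 32.6 ± 2.64 RPM and rank 5494 (chr11:4938754-4948064, minus strand, ENSMUSG00000020396.8). Among reads of the 4 subunits, Nefl took 72.7% in replicate 1 (95% interval by Wilson's method 70.7 to 74.6) and 72.4% in replicate 2 (69.7 to 75.0). In replicate 1, Nefm took 13.8% (12.4 to 15.4), Ina 11.8% (10.4 to 13.3) and Nefh 1.71% (1.22 to 2.39). In replicate 2, Nefm took 10.5% (8.84 to 12.5), Ina 14.7% (12.8 to 16.9) and Nefh 2.34% (1.60 to 3.40). The light subunit thus held nearly the same share in both libraries, while Nefm and Ina changed places behind it. For each Nefh read there were 42.5 Nefl reads in replicate 1 and 31.0 in replicate 2, and for each Nefm read 5.25 in replicate 1 and 6.89 in replicate 2. These intervals cover counting error only, as reads carry no molecular identifiers.

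Both astrocyte-associated members, Gfap and Vim, lay below Nefl. Gfap, the astrocyte filament protein, had 181 reads (169 RPM) in replicate 1 and 138 (183 RPM) in replicate 2, a mean of 176 ± 10.1 RPM (chr11:102887336-102900912, minus strand, ENSMUSG00000020932.14). Its libraries fell between those of Nefm, so these members were not separated either. Vim, at chr2:13573927-13582826 on the plus strand (ENSMUSG00000026728.9), had 28 reads (26.1 RPM) in replicate 1 and 24 (31.9 RPM) in replicate 2, a mean of 29.0 ± 4.06 RPM. Gfap was well above Vim, and the Vim range overlapped that of Nefh.

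Nes was near the detection limit. It had 8 reads (7.46 RPM) in replicate 1 and 3 (3.98 RPM) in replicate 2, the second at the limit itself, with a mean of 5.72 ± 2.46 RPM and rank 11064 (chr3:87971078-87980451, plus strand, ENSMUSG00000004891.16). Of the progenitor and dividing-cell markers listed, Sox2, which astrocytes also express, averaged 52.8 RPM, Hes5 34.5 RPM and Pax6 8.97 RPM. Mki67, a proliferation marker, had no read and Dcx, a marker of immature neurons, had 4 reads in replicate 1 and 5 in replicate 2. By level the members therefore fell into 4 tiers whose libraries did not overlap, with Nefl at the top, then Ina, Nefm and Gfap, then Nefh and Vim, then Nes. Together the 7 members took 2147 reads in replicate 1 and 1278 in replicate 2, or 0.200% of mouse reads in replicate 1 and 0.170% in replicate 2.

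**Figure D2:**
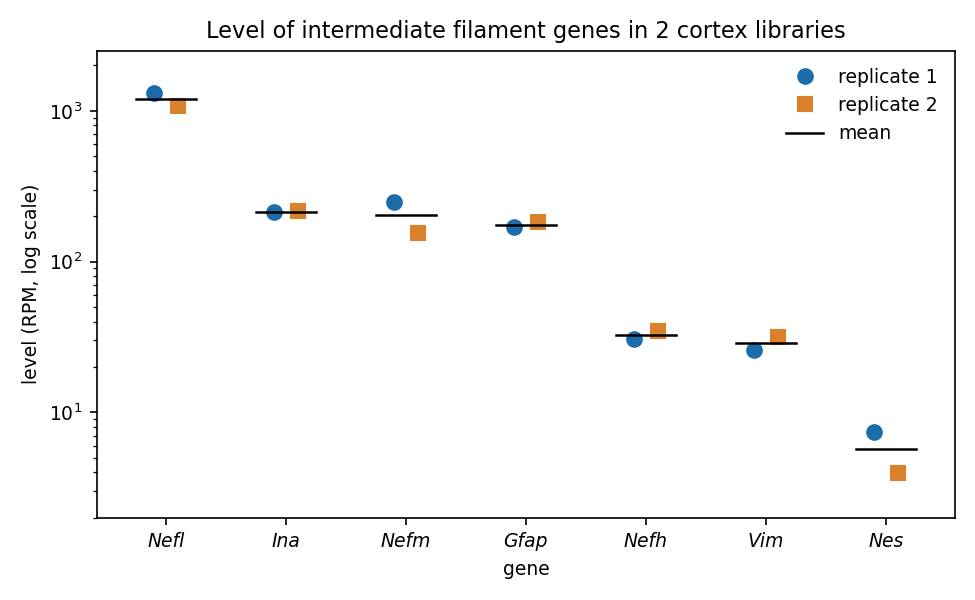
Level of each member in RPM on a log axis, with a circle for replicate 1, a square for replicate 2 and a line for their mean. Nefl stands alone at 1308 and 1070 RPM, Ina, Nefm and Gfap lie between 155 and 249 RPM, Nefh and Vim between 26.1 and 34.5 RPM, and Nes at 7.46 and 3.98 RPM.

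The nearest annotated gene in level over the 2 libraries, a likeness of level only, was Ndfip1 for Nefl, Diras2 for Nefm, Psma3 for Ina and Dvl1 for Gfap. Dvl1, for example, had 181 reads in replicate 1 and 137 in replicate 2, against 181 and 138 for Gfap in the same libraries. At the low counts of Nefh, Vim and Nes, 5, 4 and 47 genes tied for the nearest place, so no gene could be singled out.

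Both replicates were then compared gene by gene with a two-sided exact binomial test on the library totals, with Benjamini-Hochberg adjustment over the 11339 genes with 10 or more reads, a threshold that all 7 members met. The test weighs counting error alone and compares these libraries, not conditions. It called 2 of the 7 members, both higher in replicate 1, where 0.520% of tested genes were called higher and 0.362% lower (0.882% in either direction). At an unadjusted p under 0.05, 8.60% of tested genes and the same 2 members stood out. Of the 3772 genes that reached 100 reads, 1.86% were called, against 2 of the 4 members that reach that depth (Nefl, Nefm, Ina and Gfap).

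Nefl, at 1308 RPM in replicate 1 and 1070 RPM in replicate 2, had a log2 ratio, replicate 1 over replicate 2, of 0.29 (exact 95% interval 0.16 to 0.42, adjusted p = 0.00126 by the exact binomial test). For Nefm, at 249 RPM in replicate 1 and 155 RPM in replicate 2, the log2 ratio was 0.68 (0.36 to 1.01, adjusted p = 0.00363 by the same exact test). Both are subunits of the same axonal filament, and the calls did not extend to its other subunits. Ina had a log2 ratio of -0.04 (-0.34 to 0.26) and Nefh one of -0.17 (-0.95 to 0.63), each with an adjusted p of 1 by the exact test. Whether the Nefl or Nefm ratio differed from that of Ina or Nefh was not tested.

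Neither of the astrocyte-associated members passed the test. Gfap had a log2 ratio of -0.12 (-0.45 to 0.21, exact binomial adjusted p = 0.989) and Vim one of -0.29 (-1.13 to 0.56, exact binomial adjusted p = 0.986). Nes, with 8 reads in replicate 1 and 3 in replicate 2, had the widest interval, 0.77 (-1.15 to 3.46, exact binomial adjusted p = 0.997), so at this depth a difference of that size was not detectable. Its direction rested on Genomic reads: without them Nes had 0 reads in replicate 1 and 3 in replicate 2, both at or under the limit that a count of 0 allows. Of the 3 progenitor markers tested, 0 were called (1 at an unadjusted exact p under 0.05). Their median log2 ratio was -0.60 and 0 of them had a positive one. The median log2 ratio of the 7 was -0.04 and that of all tested genes 0.00347, with 3 of 7 members above 0 (42.9%) against 50.4% of all tested genes.

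Counting only reads that match a full annotated transcript, scaled to their own total, gave Nefl and Nefm log2 ratios of 0.22 and 0.51, and neither passed (exact binomial adjusted p = 0.123 and 0.320). That total was 67.1% of mouse reads in replicate 1 and 63.8% in replicate 2. The share of Nefl reads it kept was 94.7% in both, so for Nefl the scaling total changed between replicates and the share kept did not. The same calls were lost when Genomic, antisense and incomplete models were left out (adjusted p = 0.0576 for Nefl and 0.194 for Nefm). Their direction did not change.

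Genes of other cell types also moved between the libraries. Markers of myelinating oligodendrocytes were higher in replicate 1 for 5 of 6 genes tested (Mbp, Mobp, Cnp, Mag and Trf), with a median log2 ratio of 0.79 and summed levels of 5258 RPM in replicate 1 and 3152 RPM in replicate 2. The exception, Mog, had 5 reads in each. Of Mag reads, 16 of 144 in replicate 1 and 1 of 45 in replicate 2 matched an annotated transcript in full. Excitatory neuron markers of the cortex were present, among them Slc17a7, the vesicular glutamate transporter, at 1244 RPM in replicate 1 and 1113 RPM in replicate 2, and Tbr1, a factor of deep cortical layers, at 88.6 RPM in replicate 1 and 65.0 RPM in replicate 2. None of the 6 was called (2 at an unadjusted exact p under 0.05), though 5 had a positive log2 ratio, with a median of 0.29 and sums of 4607 RPM in replicate 1 and 4220 RPM in replicate 2. Most of these sums came from Nrgn, at 3072 RPM in replicate 1 and 2868 RPM in replicate 2. In both replicates 0 of the Nrgn reads matched an annotated transcript in full. Inhibitory neuron markers were not called either (0 of 5 tested, 1 at an unadjusted exact p under 0.05, median log2 ratio 0.03), with sums of 454 RPM in replicate 1 and 391 RPM in replicate 2. The part of cell makeup in the Nefl and Nefm differences was not tested.

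Markers of astrocytes, the cells in which Gfap is made, gave sums of 3170 RPM in replicate 1 and 3314 RPM in replicate 2, with 0 of 8 called (1 at an unadjusted exact p under 0.05) and a median log2 ratio of -0.14. Markers of endothelial and mural cells, which also hold vimentin, summed to 733 RPM in replicate 1 and 815 RPM in replicate 2 with 0 of 7 called (0 at an unadjusted exact p under 0.05). Among 6 genes of meninges and choroid plexus, only Ttr, the choroid plexus transthyretin, was called (3 at an unadjusted exact p under 0.05), at 25.2 RPM in replicate 1 against 256 RPM in replicate 2 (a log2 ratio of -3.32, exact binomial adjusted p = 4.10e-43). The median log2 ratio of these 6 genes was -0.44, and 2 of them had a positive one. Col1a1, a collagen gene, was among these at 0.17 and was not called. Dcn, a proteoglycan of meningeal fibroblasts, had a log2 ratio of -0.96 and Col3a1, a fibrillar collagen, one of -0.62, and neither passed (exact binomial adjusted p = 0.208 for Dcn and 0.185 for Col3a1). The part of these cells in the Vim and Gfap levels was not tested.

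**Figure D3:**
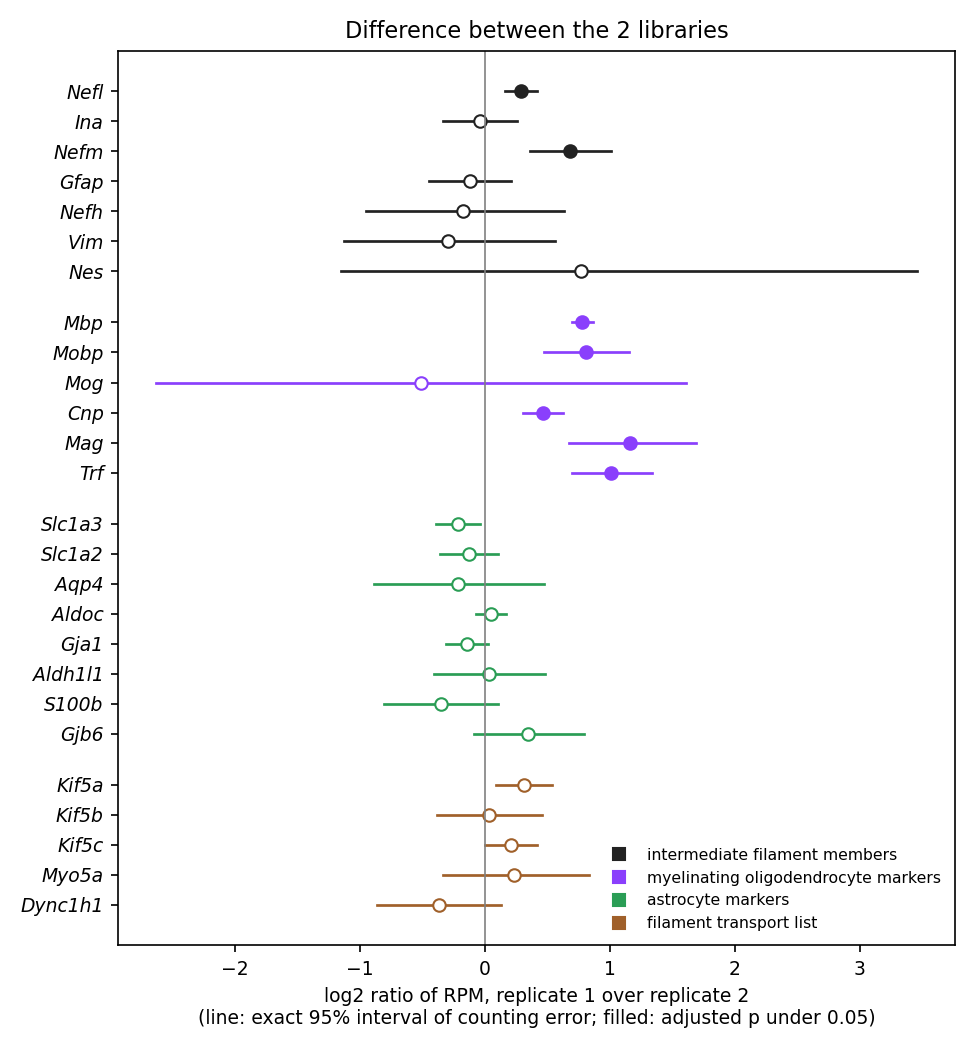
Log2 ratio of RPM, replicate 1 over replicate 2, for the 7 members, 6 myelinating oligodendrocyte markers, 8 astrocyte markers and 5 genes of filament transport, with exact 95% intervals of counting error as lines and filled points for adjusted p under 0.05. Nefl and Nefm and 5 of the 6 myelin markers are filled on the right of 0, and no astrocyte or transport gene is.

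Each read was assigned by the authors' tables to a class: an annotated transcript with its whole intron chain, an incomplete match to one, a new combination of annotated splice sites, a splice site outside the annotation, or the class named Genomic. The tables give 1 start and 1 end per model, so they do not show where each read stopped inside an end exon. Nefl reads matched an annotated transcript in 94.7% of cases in both replicates (1328 of 1403 in replicate 1 and 763 of 806 in replicate 2). In replicate 1 the share was 95.2% for Ina, 92.8% for Gfap and 89.3% for Vim, and in replicate 2 it was 92.1% for Ina, 89.9% for Gfap and 91.7% for Vim. These genes were thus read mostly as whole intron chains. The median over 5847 genes was 75.9%, and over genes with a main transcript of 3 to 4 kb, the class of Nefl, Nefm, Nefh and Ina, it was 72.5%.

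Nefm and Nefh were less complete, Nefm at 73.0% in replicate 1 and 77.8% in replicate 2, and Nefh at 84.8% in replicate 1 and 73.1% in replicate 2. Between the replicates, 0 of the 6 members with enough reads differed in this share by Fisher's exact test, Benjamini-Hochberg adjusted (0 at an unadjusted p under 0.05), against 0.0808% of 6189 genes. Nefm and Nefl have transcripts of nearly the same length, 3334 and 3380 bases. They differ in the last exon, which holds 2102 bases in Nefm and 1788 in Nefl. The last exon of Ina, with annotated shares of 95.2% in replicate 1 and 92.1% in replicate 2, holds 1993 bases. The part of last-exon length in these shares was not tested.

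In the 4 subunits, most of the reads outside an annotated transcript had no junction at all. Reads with a single exon made up 24.3% of Nefm reads in replicate 1 (65 of 267) and 20.5% in replicate 2 (24 of 117). For Nefh the share was 15.2% in replicate 1 and 23.1% in replicate 2, and for Nefl it was 4.21% in replicate 1 and 3.85% in replicate 2. Ina stood at 3.52% in replicate 1 and 5.49% in replicate 2. Against a median of 4.43% over genes of 3 to 4 kb, Nefm and Nefh lay above and Nefl and Ina close by. In Nefl, Nefh, Ina, Gfap and Nes every single-exon model lay within the last exon, and Vim had none. Nefm was the exception, with 10 Genomic reads in replicate 1 on a model at chr14:68124159-68125518 that covers part of exon 1 and sequence upstream of it, and 1 further read outside its main exons.

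**Figure D4:**
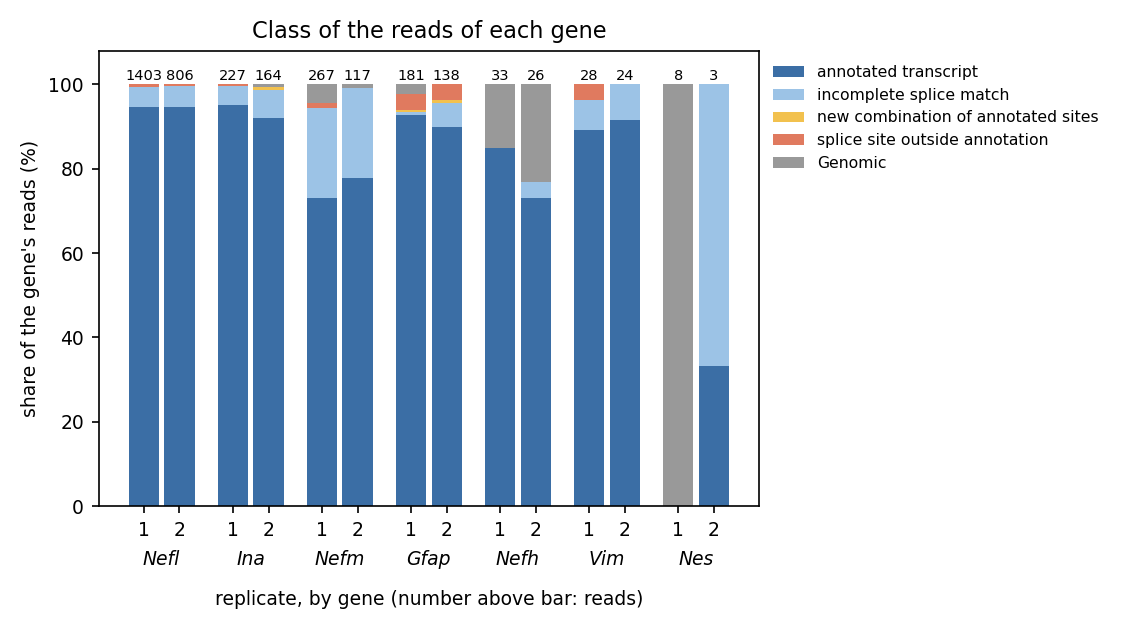
Share of each gene's reads in each class, as stacked bars in percent with replicate 1 left of replicate 2 and the read count above each bar. Annotated transcripts fill most of every bar except those of Nes; incomplete matches are prominent in Nefm and Genomic reads in Nefh.

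The junctions held by each gene's reads were counted next. In Nefl, the junction farthest from the 3′ end, at 2.233 kb, was held by 95.2% of Nefl reads in replicate 1 and 94.9% in replicate 2, and the nearest, at 1.788 kb, by 95.5% in replicate 1 and 96.0% in replicate 2. In Nefm, whose farthest junction lies at nearly the same distance, 2.227 kb, it was held by 74.2% in replicate 1 and 77.8% in replicate 2. The nearest Nefm junction, at 2.102 kb, was held by 75.3% in replicate 1 and 78.6% in replicate 2, so reads that lacked one junction mostly lacked both. Nefh junctions at 2.662 to 2.987 kb were held by 84.8% in replicate 1 and by 73.1% to 76.9% in replicate 2. Reads that crossed the last junction of a neurofilament gene therefore nearly always held the remaining ones.

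The first Gfap junction, 2.182 kb from the end, was held by 97.8% of Gfap reads in replicate 1 and 95.7% in replicate 2, and the first Vim junction, at 1.15 kb, by 92.9% of Vim reads in replicate 1 and 91.7% in replicate 2. Nes junctions lie far from the end, at 5.031 to 5.23 kb. No Nes read in replicate 1 held one (0 of 8), and 1 of 3 in replicate 2 held all 3, the single read with the full nestin intron chain in these data. The 8 reads of replicate 1 were all Genomic and the other 2 of replicate 2 were incomplete matches, each within the last exon, so Nes splicing rests on 1 read.

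**Figure D5:**
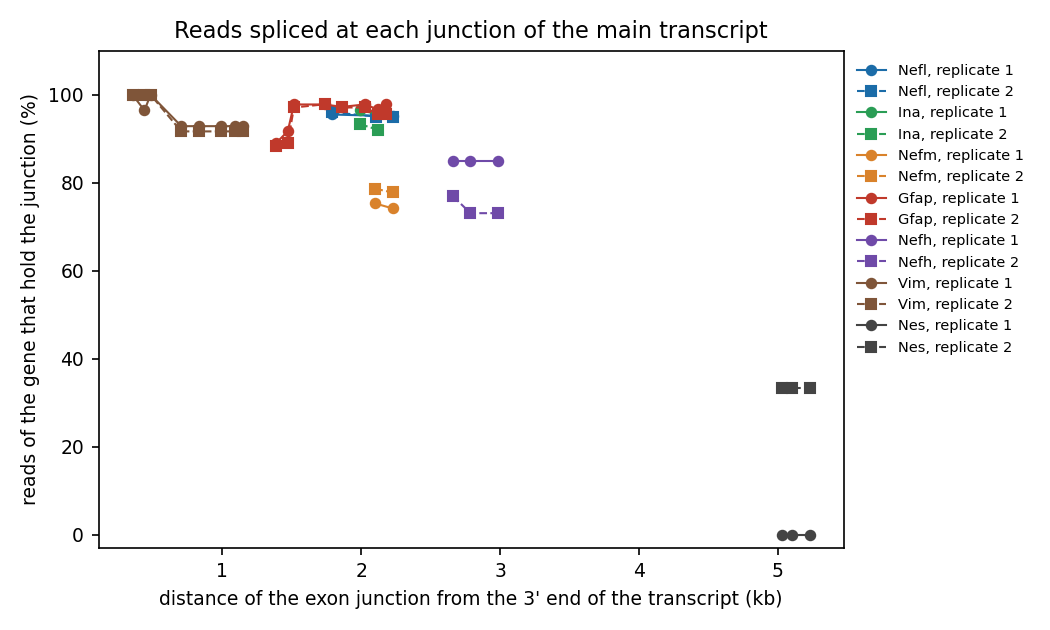
Share of each gene's reads, in percent, that hold each junction of the main transcript, against the junction's distance from the 3′ end in kb, with circles and solid lines for replicate 1 and squares and dashed lines for replicate 2. Near 2.2 kb Nefl and Gfap lie at 94.9% to 97.8% and Nefm at 74.2% in replicate 1 and 77.8% in replicate 2. Nes junctions, beyond 5 kb, are at 0% in replicate 1 and 33.3% in replicate 2.

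Among reads with at least 1 junction, 1 annotated transcript led in every member. The leading chain held 98.8% of spliced Nefl reads in replicate 1 and 98.5% in replicate 2 (Nefl-201). In replicate 1 the share was 96.5% for Nefm-201, 98.6% for Ina-201, 89.3% for Vim-201 and 89.3% for Gfap-201, and all 28 spliced Nefh reads were Nefh-201. In replicate 2 it was 97.8% for Nefm-201, 97.4% for Ina-201, 91.7% for Vim-201 and 86.7% for Gfap-201, and 19 of 20 for Nefh-201. For each of Nefl, Nefm, Nefh and Ina, a single intron chain thus held nearly all spliced reads. The median over 5472 genes was 74.8%, with an upper quartile of 89.2%. None of the 6 members tested differed between replicates in this share by Fisher's exact test, Benjamini-Hochberg adjusted (0 at an unadjusted p under 0.05), against 0.128% of those genes.

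Gfap was the member with a second annotated transcript in both libraries. Its main form runs through exon 8 to a last exon 9, and Gfap-202 leaves exon 7 for another last exon inside the following intron, the arrangement known as the delta isoform, whose tail differs from that of the main protein. Of the Gfap reads that took either path after exon 7, 10 of 177 followed Gfap-202 in replicate 1 (5.65%, 95% interval by Wilson's method 3.10 to 10.1) and 8 of 133 in replicate 2 (6.02%, 3.08 to 11.4), a mean of 5.83% ± 0.258. The replicates differed by far less than counting error.

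A splice donor 4 bases downstream of the end of exon 7 was used by 1 of those 177 Gfap reads in replicate 1 (0.565%) and by 3 of the 133 in replicate 2 (2.26%). An unannotated intron of 411 bases at chr11:102889024-102889434, which begins at the annotated end of exon 8 and ends ahead of exon 9, was seen in 3 reads in replicate 1 and 2 in replicate 2. That was 1 of only 2 chains with an intron outside the annotation that both libraries held.

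Over all members, 29 chains held an intron outside the annotation, with 22 reads in replicate 1 and 13 in replicate 2. Nefl had 12 of them and Gfap 9, and Nefh and Nes had none. The second chain shared by both libraries was assigned to Nefm but lay opposite Nefl, with an intron at chr14:68079462-68083989 and 1 read in each. The annotation has a Nefm transcript, Nefm-202, whose last exon crosses Nefl on the opposite strand (chr14:68082590-68084970), and no read carried its full chain. In Ina, 1 read of replicate 2 joined exon 1 to exon 3 and so skipped the 125-base exon.

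Of the introns outside the annotation, 8 lay wholly inside an exon of the main transcript of Nefl, Nefm or Ina, each seen in a single read, 7 of them in replicate 1. They removed 46 to 1081 bases of the long first or last exons. Of the 8, 7 began with GT and ended with AG and 1 began with GC, and the bases repeated at their ends numbered 0 to 7. Whether they arose in the cell or in making the libraries was not tested.

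Reads of other genes across the member loci were few apart from Ina. Models on the strand opposite Ina held 54 reads in replicate 1, with 17 in the antisense class, and 38 in replicate 2, with 15 in that class, and others belonged to Nt5c2. For Nefh the opposite strand held 7 reads in replicate 1 and 4 in replicate 2, some of Ap1b1, and for Nefm 4 reads in replicate 1 and 1 in replicate 2. Vim and Nes had none. The member counts above do not include these reads.

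Other genes of the family set the members' levels in scale. Of 42 further intermediate filament genes listed, 20 had no read, all of them keratins, the filament proteins of epithelia, and 10 had 10 or more reads. None of those 10 was called between replicates by the exact binomial test (0 of 10, 1 at an unadjusted p under 0.05, with a median log2 ratio of -0.23). Lmna, the nuclear lamin A/C, was the highest at 120.3 RPM in replicate 1 and 104 RPM in replicate 2, below Gfap and above Nefh. Iffo1 averaged 47.8 ± 5.61 RPM, Krt222 34.3 ± 14.8 RPM and Lmnb2, lamin B2, 26.5 ± 1.90 RPM. Of Iffo1 reads, 7 of 47 in replicate 1 and 6 of 39 in replicate 2 matched an annotated transcript in full.

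Prph, the peripherin of peripheral neurons, had 11 reads in replicate 1 and 9 in replicate 2, a mean of 11.1 RPM. Its level was below that of Nefh, and Isl1, the other peripheral-neuron marker given, had 0 reads in replicate 1 and 3 in replicate 2. Among keratins, Krt10 had 16.8 RPM in replicate 1 and 22.6 RPM in replicate 2, and Krt12 had 17.7 RPM in replicate 1 and 23.9 RPM in replicate 2, but 0 of their reads matched an annotated transcript in full. Krt222 differed from them, since in replicate 1 an annotated transcript took 36 of its 48 reads, and in replicate 2 it took 16 of 18. Krt10, Krt12 and Mog are named after their values were seen.

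Genes that handle the filaments were measured beside them. The 6 tested kinases that phosphorylate neurofilament tails or their activators had 0 called by the exact test (2 at an unadjusted p under 0.05), with a median log2 ratio of -0.17, and were led by Mapk10 at 207 RPM, Gsk3a at 193 RPM, Cdk5 at 149 RPM and Mapk3 at 125 RPM. Of motor proteins listed for filament transport, 0 of 5 were called by the exact test (2 at an unadjusted p under 0.05), with a median log2 ratio of 0.21. Kif5a, the neuronal kinesin heavy chain known to carry neurofilaments, had 434 RPM in replicate 1 and 349 RPM in replicate 2 (a log2 ratio of 0.31, exact binomial adjusted p = 0.206), and Kif5c, its close relative, had 476 RPM in replicate 1 and 411 RPM in replicate 2.

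Turnover factors had 0 of 4 tested called by the exact test (0 at an unadjusted p under 0.05). Uchl1, a ubiquitin hydrolase of neurons, averaged 425 RPM, Trim32, a ubiquitin ligase, 400.4 RPM, and Stub1, another ligase, 368 RPM. Trim2 was lower, at 76.7 RPM. Of Uchl1 reads, 28 of 462 in replicate 1 and 15 of 316 in replicate 2 matched an annotated transcript in full. Of the linkers listed, Nckipsd was the highest at 50.9 RPM on average, while the large cytoskeletal linkers averaged 15.2 RPM for Plec, 14.8 RPM for Macf1 and 6.12 RPM for Dst. By the exact test 0 of 4 linkers tested were called (0 at an unadjusted exact p under 0.05), and none of the Plec, Dst or Macf1 reads covered an annotated transcript in full.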

How the data were processed

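The authors deposited raw counts of reads for each transcript model, 1 table for each of 2 libraries, with other columns for exon number, length and coordinates made by the authors. Reads were aligned to mm10 with GENCODE M21, per the file headers, and the models' source field names TALON; the aligner and all versions were not given in the sources used here.

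Counts were summed per gene over its models and scaled to 1000000 mouse reads. Genes with 10 or more reads were tested by exact binomial test, shares (20 or more reads in each library) by Fisher's exact test, both with Benjamini-Hochberg adjustment at 0.05 (scipy 1.17.1, Python 3.11.15). Log2 ratios use a pseudocount of 0.5 reads. edgeR 4.0.16 (TMM) and DESeq2 1.42.0 in R 4.3.3 gave scaling alternatives alone, since 1 group allows no model test. Scripts were tested on simulated data. Depth was 1087280 reads in replicate 1 (1.37% on ERCC spike-ins) and 762376 in replicate 2 (1.16%), with spike-ins left out of totals. SIRV models were not analysed here.

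Members and gene lists were chosen with earlier results of these data known. Genes named were drawn from all members, the 4 highest of a list, called genes and those at 0, and each member's nearest gene in level. A few listed genes and exon sequences are not reported here, and list values leave those genes out. Sequences come from GENCODE M21 transcripts. Reads shared by overlapping or near-identical genes go to 1 gene in the tables and are uncertain. P-values weigh counting error alone.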

Additional observations from a re-analysis of the deposited data

How the results depend on the processing

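The 2 members called between libraries (Nefl and Nefm) were also 2 under TMM scaling, DESeq2 size factors, no minimum count and without Genomic models. The count was 0 with annotated transcript models only and 0 without Genomic, antisense and incomplete models; in both, 2 members had an unadjusted exact binomial p under 0.05. The cause was not tested. Over all genes the main count of 100 called became 35, 176 and 67 with annotated models only, without Genomic models, and without Genomic, antisense and incomplete models. Of 116 alternative values, 98 stayed within the main call or spread, 15 moved, 2 lost their call and 1 changed sign. That was the log2 ratio of Nes, -3.32 without Genomic models against 0.77, set by the pseudocount, since 0 reads in replicate 1 and 3 in replicate 2 were left. Those that moved include the mean level of Nes, 1.04 RPM on annotated models and 2.12 RPM without Genomic models, against 5.72 RPM. An alternative chosen after seeing the data, counting models of any gene on both strands, gave 38.6 RPM for Nefh and 265 RPM for Ina. Leaving out a library leaves no comparison between libraries. With 2 libraries, a level or share without 1 of them always lies within the spread. Such values among the 98 therefore say nothing of robustness. No paired analysis was possible because there is 1 group. Depth limits Nes, Vim and Nefh most.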
